A study of Mus musculus with 12 samples.

Results

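The glutathione transferases (GST), UDP-glucuronosyltransferases (UGT) and cytosolic sulfotransferases (SULT) were followed through 12 liver arrays. Members are the genes with a non-control probe whose array name, or current mouse symbol through the RefSeq accession, begins with Gst and a class letter, with Ugt1, Ugt2 or Ugt3, or with Sult and a number. The rule took 60 of 41174 probes and 46 of the 28781 gene names on the array: 21 GST genes on 27 probes, 13 UGT genes on 18 probes and 12 SULT genes on 15 probes. It used names only and no measured value. For 43 of the 46 genes (20 GST, 13 UGT and 10 SULT) at least 1 probe was well above background on 4 or more arrays and was tested. The other 3 genes, Gstt4, Sult2a2 and Sult3a1, are given by the number of arrays that detected them.

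These enzymes carry out the conjugation step of xenobiotic and hormone metabolism. GSTs join glutathione to electrophiles such as lipid aldehydes and activated carcinogens, UGTs transfer glucuronic acid from UDP-glucuronate to bilirubin, steroids, bile acids and phenols, and SULTs transfer sulfate from the donor PAPS (3′-phosphoadenosine 5′-phosphosulfate) to phenols, hormones and hydroxysteroids. Liver hepatocytes hold high levels of many members of each family, though not of all. Several members are known targets of the receptors CAR and PXR, of the dioxin receptor AhR, or of the oxidative stress factor NRF2. Several are also known to differ between male and female mouse liver.

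All samples were livers of 3-month-old male C57BL/6 mice labelled as GR knockout, that is, without the glucocorticoid receptor in the liver. A group of 4 received AAV-hGRB, an adeno-associated virus carrying the human receptor's beta form, a splice product that lacks hormone binding. A second group of 4 received AAV-GFP, the same kind of vector carrying green fluorescent protein, and a further 4 received PBS, the buffer without vector. AAV-hGRB against AAV-GFP addresses the effect of GR beta where GR alpha is absent in liver, AAV-GFP against PBS that of a vector, and AAV-hGRB against PBS is a further control that shares samples with both. The driver of the knockout, the promoter of the vectors, their dose and the time from injection to sampling are not stated in the labels, and no group with an intact receptor is among the samples. Whether numbered samples were separate animals is not stated. Here n therefore counts arrays, and p-values measure the spread between samples, which may be technical. In bulk liver, fewer cells of a type and less RNA per cell cannot be told apart.

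The probe sequences come first, because they decide which members can be told apart. The probes named Gsta1 and Gsta2, the members with the largest differences, are 60 bases long and list the RefSeq accessions of both genes. Capitals mark the stretch they share, bases 33 to 60 of the Gsta1 probe and bases 1 to 28 of the Gsta2 probe:

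Gsta1 probe: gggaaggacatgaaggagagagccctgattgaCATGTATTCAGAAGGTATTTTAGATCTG

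Gsta2 probe: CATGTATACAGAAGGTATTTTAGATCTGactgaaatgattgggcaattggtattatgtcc

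Of these 28 bases, 27 are identical, and the exception is T40A, counted from the 5′ end of the Gsta1 probe. Each probe can therefore pick up the other gene's transcript, and the pair is not a set of 2 independent readings. The array design places the Gsta2 probe at chr9:78408171-78408230 on the minus strand (mm7) and gives no position for the Gsta1 probe. In the UGT1 locus, where alternative first exons are spliced to a common set of later exons, 4 probes lie along the plus strand of chromosome 1 (mm7). A probe at chr1:88122519-88122578 lists 4 RefSeq accessions, those of Ugt1a1, Ugt1a5, Ugt1a6b and Ugt1a10, and so reads the locus as a whole. The other 3 are shown because each lists the curated RefSeq mRNA accession of 1 gene only:

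Ugt1a9 probe, chr1:87975078-87975137: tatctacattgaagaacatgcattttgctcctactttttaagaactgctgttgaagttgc

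Ugt1a6b second probe, chr1:88010877-88010936: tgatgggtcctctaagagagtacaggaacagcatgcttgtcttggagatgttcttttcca

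Ugt1a1 probe, chr1:88115927-88115986: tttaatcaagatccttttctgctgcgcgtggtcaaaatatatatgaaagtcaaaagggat

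Levels below are log2 intensity minus the 75th percentile of the array, so 0 is the 75th percentile and a difference of 1 is a doubling. Differences are between group means from a limma fit of all 12 arrays, with standard error (SE) and p-values adjusted over all 26625 probes tested; a probe counts as called at an adjusted p under 0.05. AAV-GFP replicate 3 stood apart: its 75th percentile was 7.71 on the log2 scale, against 8.45 to 9.22 on the other 11 arrays. It was the lowest of the 4 AAV-GFP arrays for 27 of the 43 tested members and the lowest of all 12 arrays for 21, including 10 of 13 UGT and 9 of 20 GST genes. The same counts were not made over all genes, so they do not show a trait particular to the members. The mean level of all 18904 genes tested was −0.06 on this array, against −0.36 to −0.20 on the other AAV-GFP arrays. Differences of several members are given with and without AAV-GFP replicate 3, and those of the gene lists only with it. Across the whole array 0 probes were called in any of the 3 comparisons (0%), with lowest adjusted p-values of 0.31 in AAV-hGRB against AAV-GFP, 0.102 in AAV-hGRB against PBS and 0.999 in AAV-GFP against PBS. On simulated data for the AAV-hGRB against AAV-GFP fit, 24.8% of probes changed 2-fold and 68.6% of probes changed 4-fold were recovered. The simulated noise was normal and drawn separately for each probe and array, with no effect shared by an array or slide. These shares may therefore not hold for the real arrays.

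No member was called in any comparison. The counts below are of genes, each by 1 probe, its tested probe of highest mean; the 10 other tested member probes are described with their genes. In AAV-hGRB against AAV-GFP 4 members had an unadjusted p under 0.05 (2 higher and 2 lower in AAV-hGRB), against 3.21% of all 18904 genes tested. It was 1 member in AAV-hGRB against PBS, lower in AAV-hGRB, against 5.63% of all genes. It was 1 member in AAV-GFP against PBS, lower in AAV-GFP, against 1.74% of all genes. The 4 AAV-hGRB arrays did not overlap the 4 AAV-GFP arrays for 5 members, against 2.98% of all genes: Gsta1 and Gsta2 lay above, where 0.73% of genes did, and Gstt2, Gstz1 and Sult2a8 lay below, where 2.25% did. In AAV-hGRB against PBS 3 members lay wholly below, Gsta3, Gsto1 and Gstz1, where 2.79% of all genes did, and 0 above, where 1.7% did (4.5% in either direction). In AAV-GFP against PBS no gene separated on the probe that stands for it, where 0.577% of all genes lay above and 0.36% below (0.936% in either direction). Among the other probes, the second Ugt2b37 probe had AAV-GFP wholly above PBS and AAV-hGRB wholly below AAV-GFP, and the second Sult1b1 probe had AAV-hGRB wholly below PBS.

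The alpha-class transferases gave the largest differences among the members. Gsta1 and Gsta2 are inducible alpha-class enzymes known as NRF2 and AhR targets in mouse liver. The Gsta1 probe read 5.75, 6.26, 5.85 and 5.79 in AAV-hGRB, against 4.74, 5.34, 2.98 and 4.67 in AAV-GFP and 5.97, 4.82, 4.66 and 5.41 in PBS. All 4 AAV-hGRB arrays lay above all 4 AAV-GFP arrays, while they overlapped the PBS arrays. The difference between AAV-hGRB and AAV-GFP was 1.48 ± 0.45 (SE), a 2.79-fold difference, with an adjusted p of 0.998. The Gsta2 probe read 4.32, 4.91, 4.33 and 4.32 in AAV-hGRB, against 3.22, 3.86, 1.64 and 3.05 in AAV-GFP and 4.45, 2.78, 3.27 and 3.97 in PBS. Its pattern repeats that of the Gsta1 probe, with AAV-GFP replicate 3 the lowest array and PBS replicate 1 the highest of its group. Its difference between AAV-hGRB and AAV-GFP was 1.53 ± 0.46 (SE; 2.88-fold, adjusted p = 0.998).

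AAV-GFP replicate 3 decides part of the size of both differences. Without it, AAV-hGRB minus AAV-GFP was 0.99 for Gsta1 and 1.09 for Gsta2, each with an adjusted p of 0.661, and the 4 AAV-hGRB arrays still lay above the remaining 3 AAV-GFP arrays. AAV-GFP minus PBS was −0.78 for Gsta1 and −0.67 for Gsta2 with this array, and −0.29 and −0.24 without it. AAV-hGRB minus PBS, which does not use it, was 0.70 ± 0.45 for Gsta1 and 0.86 ± 0.46 for Gsta2 (SE; adjusted p = 0.923 and 0.882). On slide 5, the array slide that holds AAV-hGRB replicate 1 and AAV-GFP replicate 2, the Gsta1 difference was 0.41 and the Gsta2 difference 0.46. On slide 6, with AAV-hGRB replicate 3 and AAV-GFP replicate 3, they were 2.87 and 2.69. No other slide holds arrays of both groups. Over the 12 arrays the readings of these overlapping probes had a Pearson r of 0.979 (permutation p = 2e-05, the smallest that 100000 permutations can give) and a Spearman rho of 0.937 (permutation p = 4e-05). Without the 2 arrays farthest from the Gsta1 median r was 0.96, for deviations from the group means it was 0.963, and a slide holds too few arrays for a value within slides. Since each probe can pick up the other gene's transcript, a high correlation is built in. Neither it nor its p-value can show whether the 2 genes vary together.

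**Figure D1:**
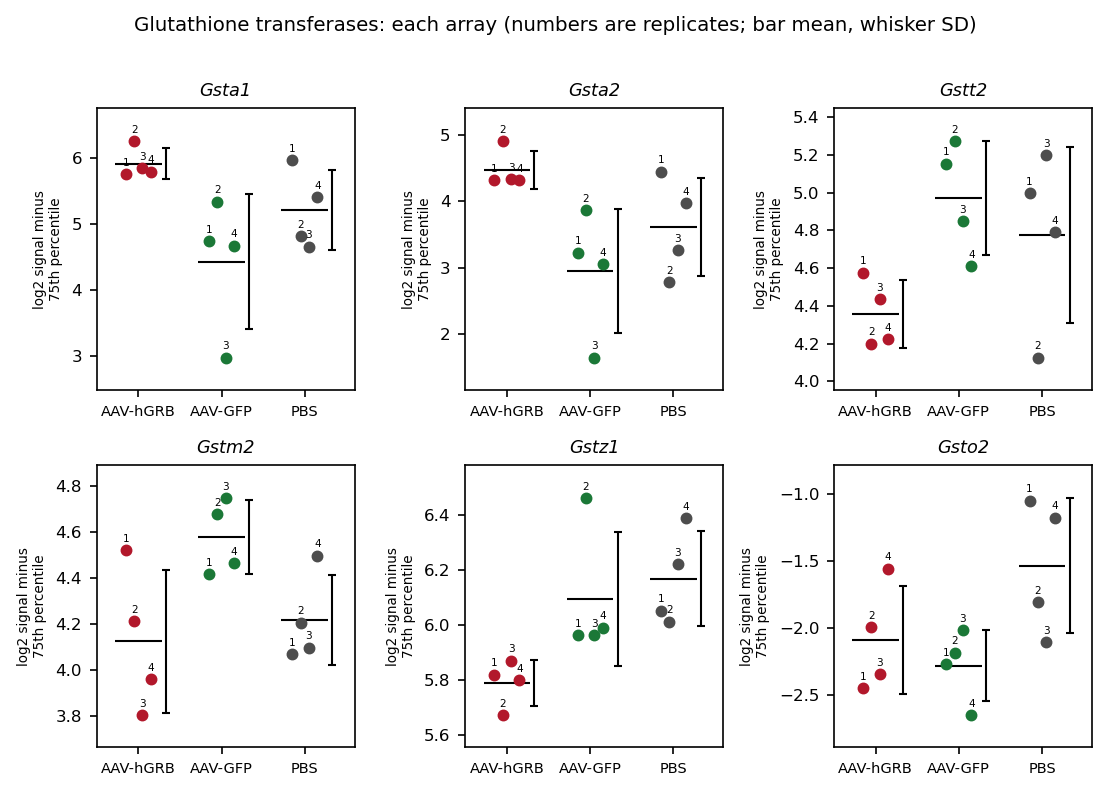
Log2 signal minus the 75th percentile of the array (vertical axes) of 6 glutathione transferase genes on each array of AAV-hGRB, AAV-GFP and PBS; points are arrays with their replicate number, bars group means and whiskers 1 SD (n = 4). For Gsta1 and Gsta2 all 4 AAV-hGRB arrays lie above the AAV-GFP arrays, of which replicate 3 is the lowest (2.98 and 1.64); for Gstt2 and Gstz1 all 4 lie below.

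The promoters of Gsta1 and Gsta2 are shown because the probes of these members gave the largest differences. They are RefSeq sequence on GRCm38.p6, from 250 bases before to 5 bases after the start of transcription, 5′ to 3′ in the direction of the gene. Capitals mark the only match to the motifs searched.

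Gsta1 promoter, chr9:78230419-78230673, plus strand: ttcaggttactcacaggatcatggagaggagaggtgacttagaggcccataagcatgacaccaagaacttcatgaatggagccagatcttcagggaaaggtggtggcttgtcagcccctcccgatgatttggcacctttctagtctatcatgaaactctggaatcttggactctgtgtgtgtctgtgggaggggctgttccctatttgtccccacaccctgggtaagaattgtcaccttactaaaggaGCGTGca

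Gsta2 promoter, chr9:78347141-78347395, minus strand: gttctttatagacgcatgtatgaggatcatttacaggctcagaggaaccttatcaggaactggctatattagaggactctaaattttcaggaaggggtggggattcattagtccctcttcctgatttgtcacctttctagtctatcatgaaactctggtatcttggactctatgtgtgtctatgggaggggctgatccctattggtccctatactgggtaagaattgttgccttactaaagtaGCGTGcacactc

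Aligned over the 250 bases before the start, 190 of 266 columns were identical (71.4%). Both hold the letters GCGTG, the core of the element bound by AhR, from base −2 to base 3 in Gsta1 and from −7 to −3 in Gsta2, counted from the start with no base 0. GCGTG on either strand stood in 32.4% of all 32851 promoters of 300 bases in the table and in 11 of the 51 promoters found for 40 member genes. TGACNNNGC, the core of the antioxidant response element that NRF2 binds, stood in 12.4% of all promoters and in 3 of the 51 member promoters (Gsta3, Gstm5 and Gstm7), with no match in either promoter shown. GTTAAT, part of the site bound by hepatocyte nuclear factor 1, stood in 7.1% of all promoters and in 7 of the 51, among them those of Ugt1a1, Ugt1a9, Ugt2a3 and Ugt3a1. These searches used both strands, and a match of letters is not a measured binding site. They covered only the 300 bases of each promoter, so an element farther from the start would not have been found.

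Gsta3 and Gsta4 did not share the separation of AAV-hGRB above AAV-GFP seen on the Gsta1 and Gsta2 probes. AAV-GFP replicate 3 was the lowest of its group for both, as on those probes. Gsta3 is the constitutive alpha-class enzyme of mouse liver that handles aflatoxin. The probe that stands for it had the narrowest spread of all members, with a within-group SD of 0.16. It read 8.55, 8.58, 8.53 and 8.26 in AAV-hGRB, against 8.81, 8.80, 8.45 and 8.46 in AAV-GFP and 8.63, 8.78, 8.64 and 8.81 in PBS. The 4 AAV-hGRB arrays lay just below the 4 PBS arrays, with a difference of −0.23 ± 0.17 (SE; adjusted p = 0.944). A second Gsta3 probe had a within-group SD of 0.50 and gave −0.25 in the same comparison, with AAV-hGRB overlapping PBS. In AAV-hGRB against AAV-GFP it gave 0.16, where the first gave −0.15. On the second probe AAV-GFP replicate 3 read 6.72, against 7.92 to 8.60 on the other AAV-GFP arrays. The first probe gave −0.21 without that array. Gsta4, which conjugates the lipid aldehyde 4-hydroxynonenal, differed by 0.10 ± 0.27 between AAV-hGRB and AAV-GFP and by −0.09 ± 0.27 between AAV-GFP and PBS (SE). Without AAV-GFP replicate 3 these Gsta4 differences were −0.12 and 0.14.

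Of the 7 mu-class genes, clustered on chromosome 3, none separated between AAV-hGRB and AAV-GFP. Gstm1, the main mu-class enzyme of mouse liver, read 10.22, 10.32, 9.75 and 9.72 in AAV-hGRB, against 9.83, 9.76, 10.38 and 10.03 in AAV-GFP and 9.64, 9.83, 10.33 and 9.78 in PBS. The groups overlapped fully, with a difference of 0.00 ± 0.23 (SE) between the vectors. Its second probe gave 0.36 ± 0.29 (SE) in that comparison. Gstm3 differed by 0.03 ± 0.24 (SE). Gstm2 gave the largest mu-class difference between the vectors. It read 4.52, 4.21, 3.80 and 3.96 in AAV-hGRB, against 4.42, 4.68, 4.75 and 4.46 in AAV-GFP and 4.07, 4.20, 4.10 and 4.50 in PBS. AAV-hGRB replicate 1 overlapped the AAV-GFP arrays, and the difference was −0.45 ± 0.20 (SE; adjusted p = 0.998).

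The weaker mu-class probes followed AAV-GFP replicate 3. Gstm4 read 1.92, 1.90, −0.43 and 2.19 in AAV-GFP, against 1.09, 1.92, 0.94 and 2.26 in PBS, and 1.24 to 1.85 in AAV-hGRB. Gstm6 read 2.95, 2.75, 0.10 and 2.49 in AAV-GFP and 1.73 to 2.32 in AAV-hGRB. The AAV-hGRB minus AAV-GFP difference of Gstm4 was 0.26 with replicate 3 and −0.35 without it, that of Gstm5 −0.17 and −0.44, that of Gstm6 0.07 and −0.59, and that of Gstm7 −0.24 and −0.54. So 2 of these 4 signs turned on 1 array. The second Gstm7 probe gave −0.16 ± 0.44 (SE) with all arrays.

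The pi, theta, kappa, omega and zeta classes gave differences of at most 0.77 in size in every comparison. Gstp1, the pi-class enzyme known to be higher in male mouse liver, averaged 9.95 ± 0.20 in AAV-hGRB, against 10.24 ± 0.38 in AAV-GFP and 9.92 ± 0.44 in PBS livers (SD, n = 4 each), on a probe that also lists Gstp2. The spot was saturated on AAV-GFP replicate 4, whose 10.23 is therefore a lower bound, as is the AAV-GFP mean; no other member probe was saturated on any array. Its second probe, which lists Gstp1 alone, differed by −0.12 between AAV-hGRB and AAV-GFP, against −0.29 on the first. Gstp3 differed by −0.12 ± 0.19 (SE). Gstt2, a theta-class enzyme, read 4.58, 4.20, 4.43 and 4.22 in AAV-hGRB, against 5.15, 5.27, 4.85 and 4.61 in AAV-GFP and 5.0, 4.12, 5.20 and 4.79 in PBS. All 4 AAV-hGRB arrays lay below the AAV-GFP arrays, by −0.61 ± 0.25 (SE; adjusted p = 0.998), but PBS replicate 2 was lower than any of them. Gstt3 read 4.26, 4.20, 3.65 and 3.37 in AAV-hGRB, against 4.65, 4.84, 3.87 and 4.10 in AAV-GFP and 5.46, 4.38, 4.56 and 4.17 in PBS. Its difference from PBS, −0.77 ± 0.33 (SE; adjusted p = 0.842), had the lowest p among the members in that comparison, and its groups overlapped. Gstt1 differed by 0.08 ± 0.26 between AAV-hGRB and AAV-GFP (SE), and by −0.20 without AAV-GFP replicate 3.

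Gstz1, the maleylacetoacetate isomerase of tyrosine breakdown, was lower on every AAV-hGRB array than on every array of either control group. It read 5.82, 5.67, 5.87 and 5.80 in AAV-hGRB, against 5.96, 6.46, 5.96 and 5.99 in AAV-GFP and 6.05, 6.01, 6.22 and 6.39 in PBS. The differences were small, −0.30 ± 0.18 from AAV-GFP and −0.38 ± 0.18 from PBS (SE; adjusted p = 0.998 and 0.858). Gstk1, the kappa-class enzyme of mitochondria and peroxisomes, averaged 6.04 ± 0.24 in AAV-hGRB, against 6.44 ± 0.32 in AAV-GFP and 6.37 ± 0.12 in PBS livers (SD, n = 4 each), a difference of −0.40 ± 0.20 (SE) between the vectors. Gsto1, an omega-class enzyme that reduces dehydroascorbate, averaged 5.35 ± 0.26 in AAV-hGRB, against 5.54 ± 0.44 in AAV-GFP and 5.70 ± 0.11 in PBS livers (SD, n = 4 each). Gsto2, its neighbour on chromosome 19, read −2.27, −2.18, −2.01 and −2.65 in AAV-GFP, against −1.05, −1.81, −2.11 and −1.18 in PBS. AAV-GFP lay 0.74 lower (−0.74 ± 0.28, SE; adjusted p = 0.999), with PBS replicate 3 inside the AAV-GFP range. Gstt4 was well above background on 2 AAV-hGRB arrays, 0 AAV-GFP arrays and 1 PBS array on its better probe.

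None of the 13 UGT genes separated between groups on the probe that stands for it, while the second Ugt2b37 probe did. Between AAV-hGRB and AAV-GFP 6 were positive and 7 negative, with a median of −0.04 and a range of −0.30 to 0.54. The UGT1 probe that reads the locus as a whole was steady, at 8.35 ± 0.22 in AAV-hGRB, against 8.44 ± 0.13 in AAV-GFP and 8.40 ± 0.14 in PBS livers (SD, n = 4 each), and its difference between the vectors was −0.09 ± 0.17 (SE). The probes that list 1 gene of the locus gave positive values there, 0.54 ± 0.49 for Ugt1a9, 0.48 ± 0.26 for the second Ugt1a6b probe and 0.25 ± 0.32 for Ugt1a1 (SE), the enzyme that conjugates bilirubin. Ugt1a1 read 0.97, 0.69, 1.87 and 1.32 in AAV-hGRB, against 1.00, 1.14, 0.84 and 0.86 in AAV-GFP and 1.99, 1.11, 0.55 and 0.70 in PBS. The AAV-hGRB values lay on both sides of the AAV-GFP values. The second Ugt1a6b probe read −2.33, −2.12, −1.26 and −1.86 in AAV-hGRB, against −2.24, −2.24, −2.57 and −2.45 in AAV-GFP and −1.83, −1.87, −2.46 and −2.55 in PBS. AAV-hGRB replicate 3 was the highest of its group for all 3 of these probes. Without AAV-GFP replicate 3, which read −4.02 for Ugt1a9, the Ugt1a9 difference was 0.10.

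The UGT2 genes, clustered on chromosome 5, encode enzymes that act on steroids, bile acids and drugs. Ugt2b5 averaged 6.51 ± 0.17 in AAV-hGRB, against 6.81 ± 0.32 in AAV-GFP and 6.6 ± 0.15 in PBS livers (SD, n = 4 each), a difference of −0.30 ± 0.20 (SE) between the vectors, the lowest UGT value. Ugt2b1 differed by −0.10 ± 0.30, Ugt2a3 by −0.07 ± 0.19, Ugt2b35 by 0.08 ± 0.45 and Ugt2a1 by 0.22 ± 0.39 in the same comparison (SE). These values lay within their errors. Without AAV-GFP replicate 3, the lowest of the 12 arrays for each of these genes, they were −0.40, −0.15, −0.43 and −0.22. The signs of Ugt2b35 and Ugt2a1 thus turned on that array. With all arrays, the 2 further probes of Ugt2a1 gave 0.09 ± 0.44 and 0.28 ± 0.41 (SE). Ugt2b38, on a probe that lists 3 genes (Ugt2b5, Ugt2b37 and Ugt2b38), had the widest spread of the family. It read 4.69, 5.52, 6.12 and 6.09 in AAV-hGRB, against 5.89, 6.53, 3.22 and 6.06 in AAV-GFP and 6.17, 6.10, 4.69 and 5.86 in PBS. Its difference between the vectors was 0.18 with AAV-GFP replicate 3 and −0.56 without it. Ugt2b34 read 0.30 on that array and 2.39 to 2.71 on the other AAV-GFP arrays, and its difference was 0.31 with the array and −0.26 without it.

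With all 12 arrays in the fit, the 2 probes of Ugt2b37 disagreed. The probe that stands for the gene, which also lists Ugt2b36, gave −0.05 ± 0.28 in AAV-GFP against PBS (SE), and 0.21 without AAV-GFP replicate 3. The second, which lists Ugt2b37 alone and lies at chr5:87177445-87177504 on the minus strand (mm7), read 5.42, 5.90, 5.50 and 5.86 in AAV-hGRB, against 6.08, 6.41, 5.92 and 5.98 in AAV-GFP and 5.24, 5.73, 5.57 and 5.57 in PBS. The AAV-GFP arrays lay above all arrays of both other groups on this probe, replicate 3 included. AAV-GFP minus PBS was 0.57 ± 0.20 (SE; adjusted p = 0.999) and AAV-hGRB minus AAV-GFP was −0.43 ± 0.20 (SE; adjusted p = 0.998). Ugt3a1 and Ugt3a2 belong to a family whose human members use sugar donors other than UDP-glucuronate. Ugt3a1 differed by −0.04 ± 0.32 and Ugt3a2 by −0.18 ± 0.24 between the vectors (SE). The second Ugt3a2 probe gave −0.005 ± 0.20 (SE). Without AAV-GFP replicate 3 the Ugt3a1 and Ugt3a2 differences were −0.41 and −0.38, and the 4 AAV-hGRB arrays then lay below the remaining 3 AAV-GFP arrays for both.

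All 10 tested SULT genes had a negative difference between AAV-hGRB and AAV-GFP, where 11709 of all 18904 genes did. The median of the family was −0.35, beside −0.09 over all genes, and no SULT gene had an unadjusted p under 0.05. Sult2a8, known as the main bile acid sulfotransferase of mouse liver, separated between the vectors. It read 7.27, 7.32, 7.09 and 6.94 in AAV-hGRB, against 7.72, 7.65, 8.05 and 7.33 in AAV-GFP and 6.40, 7.47, 7.52 and 7.21 in PBS. The AAV-hGRB values lay below every AAV-GFP value but inside the PBS range. The difference was −0.53 ± 0.26 from AAV-GFP (SE; adjusted p = 0.998) and 0.00 ± 0.26 from PBS, and AAV-GFP minus PBS was 0.54 ± 0.26. Within slides 5 and 6 the Sult2a8 difference between the vectors was −0.37 and −0.96.

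Sult1d1, which sulfates catecholamines in mice, read 2.44, 2.56, 2.75 and 2.29 in AAV-hGRB, against 3.39, 3.03, 3.03 and 2.39 in AAV-GFP and 1.97, 2.69, 2.89 and 2.98 in PBS. AAV-GFP replicate 4 lay among the AAV-hGRB arrays, and the difference was −0.45 ± 0.27 (SE). Sult5a1, a member without a well-known substrate, read 0.76, 0.62, 0.85 and −0.12 in AAV-hGRB, against 1.46, 0.15, 1.93 and 1.27 in AAV-GFP and −0.71, 1.41, 1.05 and −0.96 in PBS. The PBS arrays formed a high and a low pair, and AAV-GFP minus PBS was 1.00 ± 0.54 (SE; adjusted p = 0.999). Sult2b1, the cholesterol and pregnenolone sulfotransferase, was well above background on 4 AAV-hGRB, 4 AAV-GFP and 1 PBS array. It read −4.02, −4.01, −3.81 and −4.13 in AAV-hGRB, against −2.29, −3.85, −2.62 and −4.28 in AAV-GFP and −4.68, −3.60, −3.99 and −4.17 in PBS. AAV-GFP replicates 1 and 3 were high and the other AAV-GFP arrays matched the AAV-hGRB level, with a difference of −0.73 ± 0.40 (SE).

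The remaining SULT1 genes and Sult4a1 gave differences of −0.37 to −0.02 between the vectors. Sult1a1, the phenol sulfotransferase, averaged 4.82 ± 0.60 in AAV-hGRB, against 5.07 ± 0.43 in AAV-GFP and 5.14 ± 0.48 in PBS livers (SD, n = 4 each). Sult1b1, which acts on thyroid hormones, differed by −0.05 ± 0.47 (SE), and by −0.58 without AAV-GFP replicate 3. Its second probe read −0.64, −1.01, −0.58 and −0.84 in AAV-hGRB, against 0.06, 0.14, −0.53 and −0.76 in AAV-GFP and −0.56, −0.55, −0.53 and 0.50 in PBS. On it the AAV-hGRB arrays lay below all PBS arrays, the highest of them just under the lowest 3 PBS arrays, and overlapped the AAV-GFP arrays. The differences were −0.50 ± 0.29 from AAV-GFP and −0.48 ± 0.29 from PBS (SE; adjusted p = 0.998 and 0.916). Sult1c1 differed by −0.05 ± 0.42 and Sult1c2 by −0.33 ± 0.43 between the vectors (SE), and by −0.34 and −0.51 without AAV-GFP replicate 3. Sult1e1, the estrogen sulfotransferase, was well above background on 2 arrays of each group. It read −4.47, −5.34, −3.98 and −2.94 in AAV-hGRB, against −4.33, −4.70, −3.04 and −4.59 in AAV-GFP and 0.23, −4.10, −4.80 and −4.48 in PBS. PBS replicate 1 alone was high, and AAV-GFP minus PBS was −0.88 with this array and 0.30 without it. Sult2a2 was well above background on 0 AAV-hGRB, 0 AAV-GFP and 2 PBS arrays, and Sult3a1 on 1, 0 and 2 arrays of these groups.

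**Figure D2:**
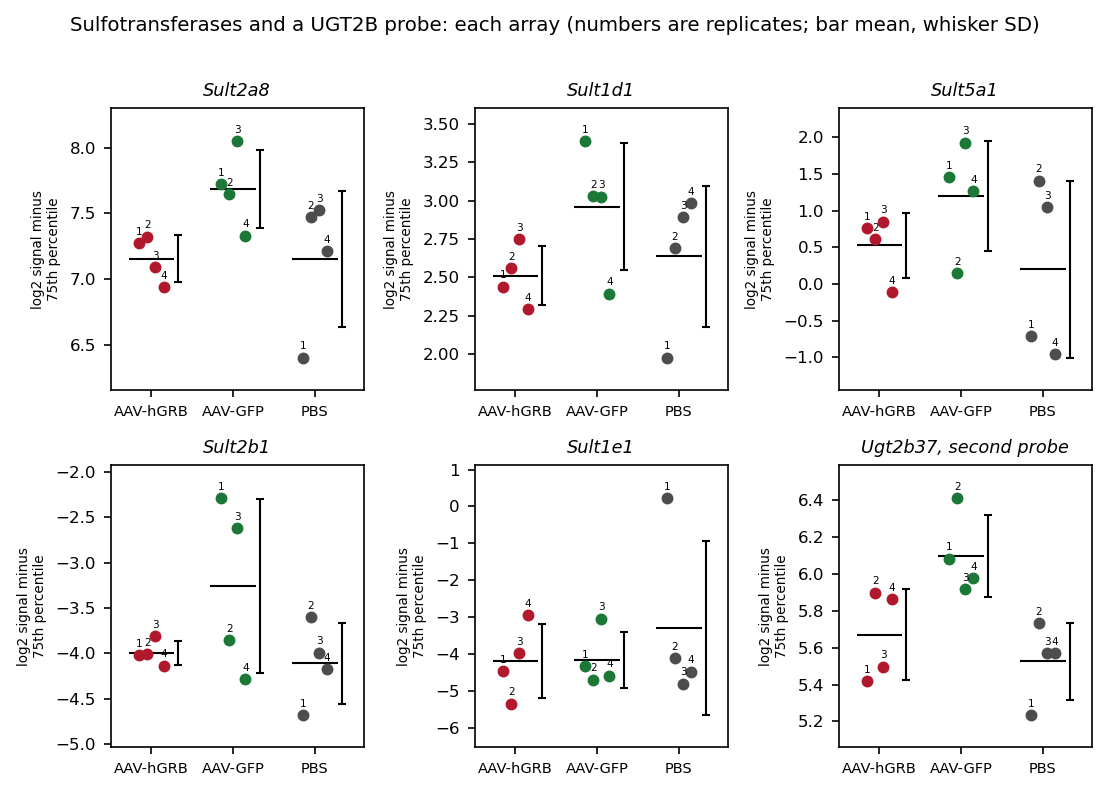
Log2 signal minus the 75th percentile of the array (vertical axes) of 5 sulfotransferase genes and the second Ugt2b37 probe on each array of AAV-hGRB, AAV-GFP and PBS; points are arrays with their replicate number, bars group means and whiskers 1 SD (n = 4). Sult2a8 and the Ugt2b37 probe show AAV-hGRB arrays wholly below AAV-GFP arrays, and PBS replicate 1 of Sult1e1 stands alone at 0.23.

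By family, the median differences between AAV-hGRB and AAV-GFP were −0.13 for GST, −0.04 for UGT and −0.35 for SULT, beside −0.09 over all genes. Between AAV-GFP and PBS they were −0.11, −0.10 and 0.08, beside 0.02 over all genes. Between AAV-hGRB and PBS they were −0.18, −0.09 and −0.22, beside −0.08. The mean level of the 20 GST genes was 4.15 ± 0.11 in AAV-hGRB, against 4.13 ± 0.36 in AAV-GFP and 4.27 ± 0.14 in PBS livers (SD, n = 4 each). That of the 13 UGT genes was 4.17 ± 0.27 in AAV-hGRB, against 4.12 ± 0.63 in AAV-GFP and 4.21 ± 0.18 in PBS. That of the 10 SULT genes was 0.59 ± 0.17 in AAV-hGRB, against 0.94 ± 0.24 in AAV-GFP and 0.83 ± 0.17 in PBS. The wide AAV-GFP spread of GST and UGT came from replicate 3, at 3.61 and 3.20, against 4.21 to 4.42 and 4.31 to 4.62 on the other AAV-GFP arrays. For SULT this array lay inside its group, at 0.91 between 0.62 and 1.19.

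Leaving out AAV-GFP replicate 3 changed the family picture. The array was singled out in these same values, as the lowest of its group for 27 of the 43 members. Leaving it out raises the AAV-GFP mean of those genes, so the shifts below follow in part from that choice and are a description only. The number of members with a negative AAV-hGRB minus AAV-GFP difference was 28 of 43 with it and 35 of 43 without it, 15 of 20 GST, 11 of 13 UGT and 9 of 10 SULT genes. Of all 18904 genes tested, 11709 had a negative difference with this array and 11187 without it. The family medians without it were −0.28, −0.37 and −0.43, beside −0.08 over all genes. Without it 9 members had every AAV-hGRB array below every AAV-GFP array (Gstm4, Gstm5, Gstm6, Gsto1, Gstt2, Gstz1, Sult2a8, Ugt3a1 and Ugt3a2), where 6.9% of all genes did, and 2 lay above (Gsta1 and Gsta2), where 2.95% did. In AAV-GFP against PBS the medians without it were 0.09 for GST, 0.21 for UGT and 0.25 for SULT, beside −0.01 over all genes. There Ugt3a1 lay above PBS (2.01% of all genes) and Gsto2 below (1.54%). In these fits too, no member and no other probe was called.

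**Figure D3:**
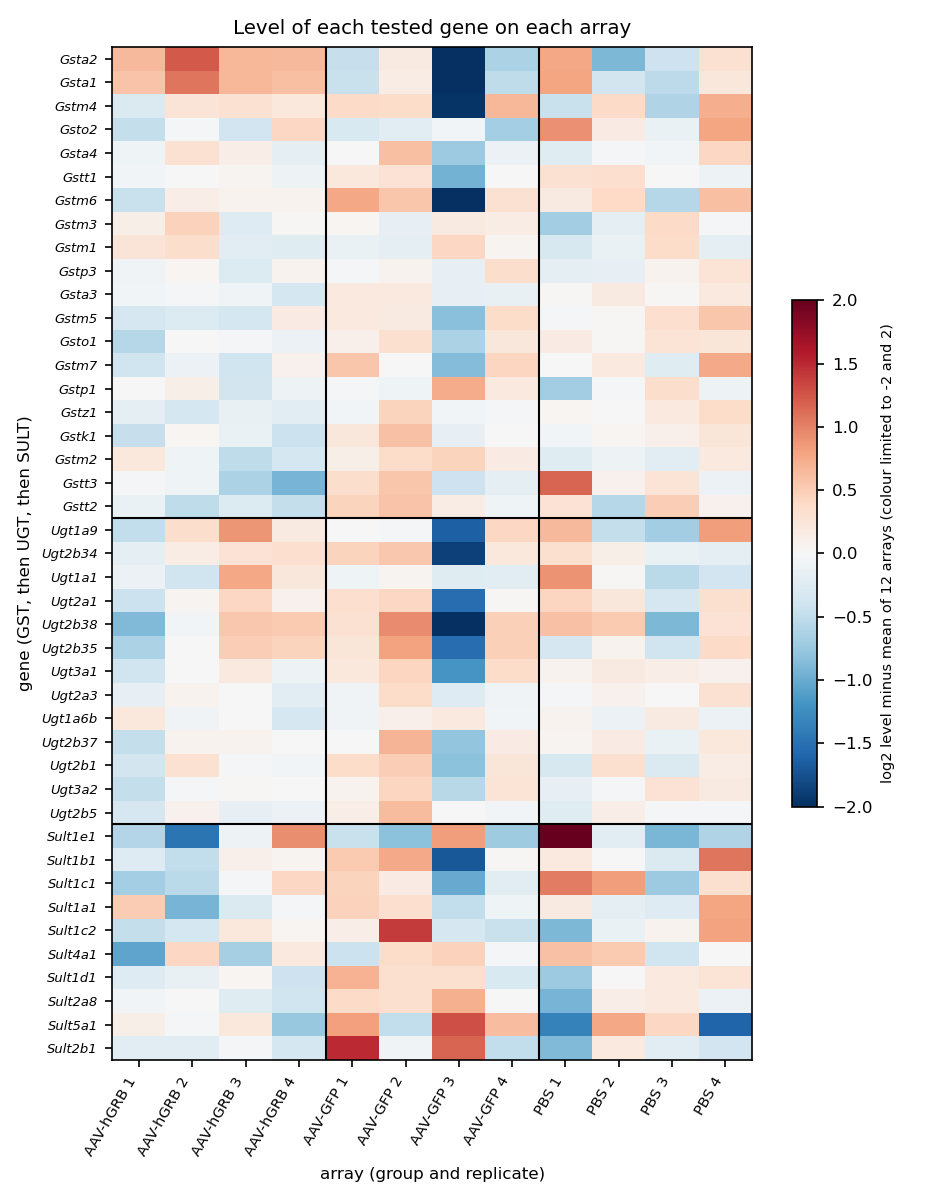
Level of each of the 43 tested genes (rows, by family) on each of the 12 arrays (columns, by group and replicate) as log2 difference from the mean of the gene over 12 arrays, with colours limited to −2 and 2. AAV-GFP replicate 3 is blue in most GST and UGT rows, and the top 2 rows, Gsta2 and Gsta1, are red in all 4 AAV-hGRB columns.

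**Figure D4:**
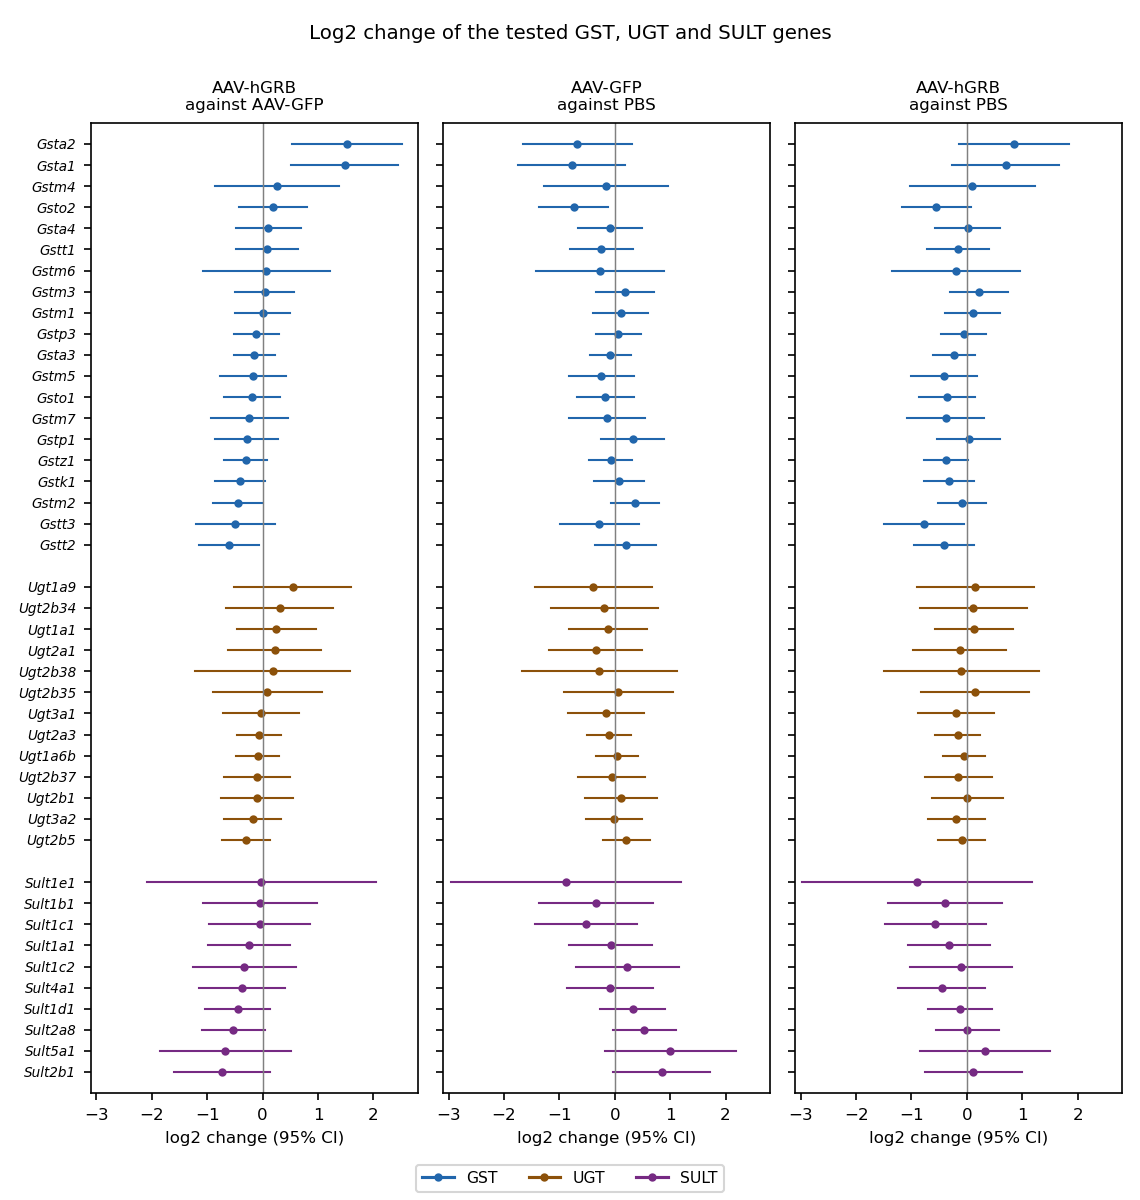
Log2 difference (points) with 95% confidence interval (lines, unadjusted) of the 43 tested genes in each comparison, ordered within GST, UGT and SULT by AAV-hGRB against AAV-GFP. The Gsta1 and Gsta2 intervals lie above 0 in the left panel, 0.51 to 2.45 and 0.54 to 2.52, and the points of all 10 SULT genes lie below 0 there.

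The spread between arrays set what these data could show. The median within-group SD was 0.36 for GST, 0.46 for UGT and 0.63 for SULT genes, beside 0.45 over all genes, and it ran from 0.16 for Gsta3 to 1.55 for Sult1e1. The median SE of a difference over all probes was 0.31.

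The genes that supply the conjugates were followed as lists chosen with earlier results known, and no listed gene was called in any comparison. Of 11 tested genes of glutathione supply, 7 were positive and 4 negative between AAV-hGRB and AAV-GFP, with a median of 0.05. Gclm and Gclc, the subunits of the enzyme that limits glutathione synthesis, gave 0.57 ± 0.44 and 0.29 ± 0.23 (SE). The 7 genes of UDP-glucuronate supply had a median of 0.03, with 0.03 ± 0.20 (SE) for Ugdh, which makes UDP-glucuronate. The 8 genes of PAPS supply had a median of −0.13, and Slc35b2, a PAPS transporter of the Golgi, had the lowest p of the list, at −0.46 ± 0.24 (SE). The 5 tested genes of conjugate export had a median of 0.03 and a range of −0.45 to 0.56, with 0.20 ± 0.17 for Abcc2 and −0.01 ± 0.21 for Abcc3 (SE). All these values include AAV-GFP replicate 3. Its mean level for glutathione supply was 3.78, against 4.76 to 4.92 on the other AAV-GFP arrays. For UDP-glucuronate supply it was 1.67, against 2.37 to 2.81, and for PAPS supply 2.52, against 2.76 to 2.94. For conjugate export it was 2.54, against 2.79 to 3.05.

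Of 14 other conjugation enzymes, 13 were negative between AAV-hGRB and AAV-GFP, with a median of −0.18. Over all genes 11709 of 18904 were negative there, with a median of −0.09. Nnmt, nicotinamide N-methyltransferase, averaged 4.38 in AAV-hGRB, against 5.18 in AAV-GFP and 5.81 in PBS, and differed by −0.80 ± 0.45 from AAV-GFP and by −1.43 ± 0.45 from PBS (SE; adjusted p = 0.998 and 0.787). Inmt, indolethylamine N-methyltransferase, gave −0.42 ± 0.21 and −0.67 ± 0.21 (SE), and its AAV-hGRB arrays lay below all PBS arrays.

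The regulators and their best-known targets stood beside the Gsta1 and Gsta2 values as follows. Nfe2l2, which encodes NRF2, differed by 0.03 ± 0.17, Keap1, its inhibitor, by 0.36 ± 0.21, and Ahr by 0.08 ± 0.22 between AAV-hGRB and AAV-GFP (SE). Among 10 target genes of these receptors, 5 were positive and 5 negative, with a median of 0.02. Their mean level on AAV-GFP replicate 3 was 2.13, against 3.30 to 3.64 on the other AAV-GFP arrays, so these differences rest partly on that array. The NRF2 targets Nqo1, Srxn1 and Txnrd1 gave 0.10 ± 0.34, 0.12 ± 0.21 and −0.27 ± 0.26, and the AhR targets Cyp1a1 and Cyp1a2 −0.07 ± 0.45 and −0.05 ± 0.34 (SE). Cyp2b10, a CAR target, and Cyp3a11, a PXR target, gave 0.25 ± 0.69 and 0.68 ± 0.77 (SE). All the values given for these regulators and targets lay within 2 SE of 0.

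Interferon, sex-biased and cell-type lists were followed in the same comparisons. All 13 tested interferon-induced genes were positive, with a median of 1.99, and their mean level was 1.54 to 3.08 in AAV-hGRB, against 0.18 to 0.78 in AAV-GFP and −0.08 to 0.66 in PBS. All 11 Kupffer cell and macrophage markers were positive (median 0.34), with mean levels of 1.88 to 3.09 in AAV-hGRB and 1.91 to 2.65 in AAV-GFP. Of 10 T and NK cell markers 8 were positive (median 0.47), with mean levels of −2.48 to −1.51 in AAV-hGRB and −2.79 to −2.24 in AAV-GFP. All 10 male-biased liver genes were negative (median −0.32) between the vectors, 6 positive and 4 negative (median 0.11) between AAV-hGRB and PBS, and all 10 positive (median 0.37) between AAV-GFP and PBS. Of 11 female-biased liver genes 4 were positive and 7 negative (median −0.01) between the vectors. Of these 11, 10 were negative between AAV-hGRB and PBS (median −0.54) and 10 between AAV-GFP and PBS (median −0.53). Of 9 bile duct cell markers 7 were negative (median −0.47). The 10 hepatocyte markers had a median of −0.08, with mean levels of 7.86 to 8.06 in AAV-hGRB, against 7.35 to 8.21 in AAV-GFP and 7.86 to 8.22 in PBS, so the labelled tissue carried its defining transcripts on every array. None of these listed genes was called, and their part in the values of the conjugation enzymes was not tested.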

How the data were processed

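Total RNA of 12 liver samples (4 each of AAV-hGRB, AAV-GFP and PBS) was labelled with Cy3 and hybridised to one-colour Agilent mouse arrays, per the labels. Values in the deposited scanner output are linear spot intensity, from which local background had been subtracted and each array detrended by Agilent Feature Extraction 9.5.3.1, per the file headers (9.5 in the submitters' processing notes). The deposited series matrix holds the same intensity with no scaling between arrays.

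From the processed intensity, log2 was taken, spots of a probe were averaged without outlier spots, and the 75th percentile of the array was subtracted. Control spots (1639) were left out. A probe was tested if well above background on at least 4 of 12 arrays (26625 of 41174 probes). Of the 60 member probes, 58 were named through RefSeq accessions and 2 keep the array name; of 46 member genes, 40 have a promoter in the RefSeq table (GRCm38.p6). Probe positions are on mm7, per the file headers. For a gene with several tested probes, the probe of highest mean stands for it.

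Limma 3.58.1 in R 4.3.3 fitted the 3 groups over all 12 arrays (9 residual degrees of freedom), with two-sided tests and Benjamini-Hochberg adjustment over all probes tested at 0.05. Precision is limited by the number of arrays. The fit was tested on simulated data over 26625 probes in 5 draws, with 5.8 false calls per draw. Correlations and promoter searches used Python 3.11.15 with scipy 1.17.1. Alternatives were quantile and median scaling, normexp background correction (offset 50), other filters on dim probes, slide or replicate number as a block, array weights, outlier spots kept, the series matrix values, the mean over the probes of a gene, and each array left out.

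Named are called members, the 4 largest positive and 4 largest negative differences of each family in each comparison, and a fixed list of well-known members; genes counted as separated or without AAV-GFP replicate 3 are named besides. A gene of the lists is not reported here. The members, lists and tests were chosen with earlier results of these data known. Values within slides and counts without AAV-GFP replicate 3 were added after seeing the data. The main fit did not pair samples by replicate number. The deviations of same-numbered samples from their group means had correlations between −0.43 and 0.59, which cannot show whether samples were paired.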

Additional observations from a re-analysis of the deposited data

Results flagged for a closer look

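In 13 of 129 groups of 4 arrays over the 43 tested members, 1 array lay so far from the nearest other array that the gap, as a share of the range of the group, passed Dixon's 95% critical value. Chance gives about 1 in 20 such groups, and members of a family share arrays, so these are not separate events.

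AAV-GFP replicate 3 was the lowest array for 5 members: Gstm4 read −0.43 (1.90 to 2.19 on the other AAV-GFP arrays), Gstm5 0.38 (1.38 to 1.58), Gstm6 0.10 (2.49 to 2.95), Ugt2b34 0.30 (2.39 to 2.71) and Ugt3a1 3.35 (4.74 to 4.96). AAV-hGRB replicate 1 was the lowest for Gstm6 at 1.73 (2.25 to 2.32 on the other AAV-hGRB arrays), for Ugt2b37 at 6.39 (6.86 to 6.94) and for Ugt3a2 at 4.94 (5.37 to 5.44). AAV-hGRB replicate 4 read 8.26 for Gsta3 (8.53 to 8.58) and 1.37 for Gstm5 (0.86 to 0.94). AAV-hGRB replicate 2 read 4.91 for Gsta2 (4.32 to 4.33). AAV-GFP replicate 2 read 6.46 for Gstz1 (5.96 to 5.99). PBS replicate 1 read 0.23 for Sult1e1 (−4.80 to −4.10), a probe well above background on 2 of the 4 PBS arrays.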

How the results depend on the processing

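No member was called under any of the 10 alternatives with a test or with any of the 12 arrays left out; the lowest adjusted p of a member was 0.254 in AAV-hGRB against AAV-GFP, 0.097 in AAV-hGRB against PBS and 0.537 in AAV-GFP against PBS, each with array weights. With array weights 67 probes were called in AAV-hGRB against PBS, none of them a member; every other alternative called 0 probes in each comparison. The replicate block called 0 members and 0 probes in every comparison.

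The sign of the GST median in AAV-hGRB against AAV-GFP turned with quantile scaling (0.06). That of the UGT median there turned with quantile scaling (0.18), the slide block (0.18) and the mean over probes. It also turned with AAV-hGRB replicate 1, or any AAV-GFP array but replicate 3, left out (−0.37 to 0.12 over the arrays left out). These shifts were smaller than the SD between replicates of the family mean (0.23 for GST and 0.41 for UGT). That SD describes single arrays and was widened by AAV-GFP replicate 3, so it cannot show that the shifts are negligible. For UGT it was 0.63 in AAV-GFP, against 0.27 in AAV-hGRB and 0.18 in PBS. The SULT median in AAV-hGRB against AAV-GFP was negative throughout (−0.48 to −0.24 with an array left out). In AAV-GFP against PBS the SULT median ran from −0.17 without AAV-GFP replicate 2 to 0.29 without PBS replicate 4, and the GST and UGT medians turned positive with array weights and without AAV-GFP replicate 3, the GST median also without PBS replicate 4. The UGT median in AAV-hGRB against PBS turned positive with quantile scaling (0.05), the slide block and without AAV-hGRB replicate 1 (0.03). The cause was not tested. Normexp moved the median of all genes by 0.10 in AAV-hGRB against AAV-GFP. Of the 43 members, 17 kept their sign throughout in AAV-hGRB against AAV-GFP, 20 in AAV-hGRB against PBS and 12 in AAV-GFP against PBS. Gsta1 ran from 1.20 to 1.69 and Gsta2 from 1.31 to 1.65 over the processing alternatives in AAV-hGRB against AAV-GFP. Members near background (Sult1e1, Sult2b1 and Ugt1a9) are uncertain. So are brighter members with a wide spread, such as Ugt2b38 and Gstm6 (within-group SD of 1.03 and 0.84).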
